A study of Mus musculus with 4 samples.

Results

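A set of 259 T cells among 15181 kept lung immune cells carried transcripts of T cell activation and helper differentiation without a detected transcript of Foxp3, and are here called activated Foxp3-negative helper-like T cells or, below, members. The members were chosen by their raw counts of unique molecular identifiers (UMIs, the number of distinct captured mRNA molecules). A kept cell had at least 200 detected genes and at most 10% of its UMIs from mitochondrial genes. A member had at least 1 UMI of Cd3d, Cd3e or Cd3g together, UMIs of at least 2 of the 6 genes Icos, Ctla4, Rora, Cxcr6, Maf and Tnfrsf4, and no UMI of Foxp3, Cd8a, Cd8b1, Il2rb, Trdc, Rag1, Dntt or Cd79a. The gate held 64 cells in WT 1, 50 in WT 2, 68 in KO 1 and 77 in KO 2. Each library came from live CD45.2+ leukocytes sorted from the lung of C57BL/6J mice aged 10 weeks, with 2 mice of each genotype. All the mice were Lmna-flox/flox. The WT mice were Vav1-cre-/- and the knockout (KO) mice were Vav1-cre+/-. Vav1-cre drives recombination in blood-forming cells and the leukocytes made from them. The knockout mice carried Cre and the WT mice did not, so effects of lamin A loss and of Cre itself cannot be told apart. The labels do not say which exons of Lmna were flanked by loxP sites.

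CD4 T cells that meet antigen together with costimulation raise the receptors encoded by Icos, Tnfrsf4 (OX40) and Ctla4, and the transcription factors Rora, Maf and Gata3 take part in their differentiation into helper subsets. Cxcr6 encodes a chemokine receptor found on T cells that stay in tissues such as the lung. Naive cells instead carry the lymph node homing receptor gene Ccr7 and the transcription factor Lef1. Foxp3 defines regulatory T cells, which share many activation genes with effector helper cells. Lmna encodes lamins A and C, filaments of the nuclear lamina whose level is low in resting lymphocytes.

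The 4 libraries held 21780914 to 27045250 UMIs each, and the median member had 5519.5 and 5743 UMIs in WT 1 and WT 2 and 4504.5 and 5317 in KO 1 and KO 2. WT 2 stood apart: T cells with Rag1 or Dntt, genes of T cell precursors, made up 12.9% of its kept cells and 0.478% to 1.31% of the others. The gate leaves out cells with those transcripts, and results that turn on WT 2 are given without it as well. Any pair of libraries shared 2 to 5 cell barcodes, and no member's barcode recurred in another library. Among the 259 members, 22 had UMIs of at least 5 of 13 myeloid genes and are called myeloid-rich below. There were 4 in WT 1, 6 in WT 2, 7 in KO 1 and 5 in KO 2, and 8 of the 22 had a high doublet score. Their median depth was 17936, 18263, 13841 and 6300 UMIs in the 4 libraries, against 5449.5, 5471.5, 4425 and 5228 in the other members. They held 17.6%, 31.2%, 26.9% and 9.50% of the members' UMIs. Levels are given as CPM, the UMIs of a gene scaled by all UMIs of the summed cells of a library. The summed level of the 13 myeloid genes was 3996, 9490.4, 5909 and 2827 CPM in all members and 254 to 379.8 without the 22 cells, against 195 to 278 in resting CD4 T cells gated the same way. All 13 genes were detected in all members, and 1 of them was at 0 in the remaining 237. The same 13 genes chose the 22 cells, so this drop followed in part from the choice. Genes of lung epithelium summed to 35459 CPM in KO 1, of which Scgb1a1 gave 35336, and to 76.9 without the myeloid-rich cells. Expression results are given with and without these 22 cells. Where 4 values stand in a row, they are in the order WT 1, WT 2, KO 1 and KO 2.

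Icos, the gene that opened the gate for most cells, had a UMI in 210 of the 259 members, followed by Ctla4 in 127, Rora in 109, Maf in 101, Tnfrsf4 in 71 and Cxcr6 in 38. These values chose the members and are a description. Icos was found in 82.8% and 84.0% of members in WT 1 and WT 2 and in 79.4% and 79.2% in KO 1 and KO 2. In B cells of the same libraries, which should lack it and had median depths of 3452 to 3937 UMIs, it was found in 0.119% to 0.302%. Cxcr6 was the most uneven, at 12.5% and 4.0% in WT 1 and WT 2 and 23.5% and 15.6% in KO 1 and KO 2. With each cell thinned to 1500 UMIs the shares were 6.25%, 2.0%, 16.4% and 9.09%, from 4, 1, 11 and 7 cells. Both knockout libraries lay above both WT libraries on either measure. Because the gene was used to choose the cells, this is a description. Exactly 2 of the 6 genes were present in 173 members (66.8%), 3 in 46, 4 in 29, 5 in 10 and all 6 in 1. The pair of Icos and Ctla4 accounted for 63 of the 173.

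**Figure D1:**
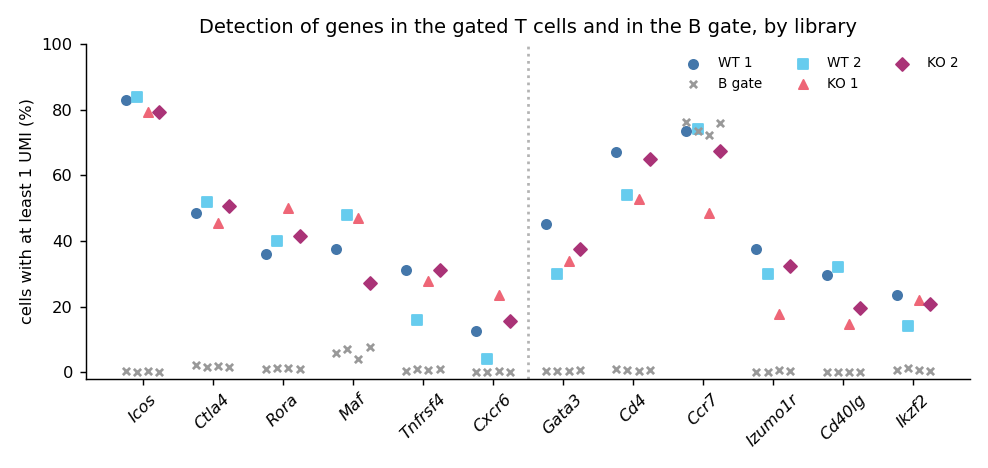
Share of gated cells with at least 1 UMI of each gene (y axis, percent) in the 4 libraries, with the B cells of each library as grey crosses; the 6 genes left of the dotted line were used to choose the cells. Icos lies between 79.2% and 84.0%, and Ccr7, which B cells also express, remains in many of the gated cells.

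Most members carried genes of the alpha-beta T cell receptor. Trac, the constant region of the receptor's alpha chain, was detected in 86.0% to 92.2% of members by library against 0.503% to 1.18% of B cells, and Trbc2, of the beta chain, in 45 of 50 to 77 of 77. Cd4 itself had a UMI in 67.2%, 54.0%, 52.9% and 64.9% of members in WT 1, WT 2, KO 1 and KO 2 (156 of 259). Gata3, the marker of the proposed name that the gate did not use, was present in 45.3%, 30%, 33.8% and 37.7%. By detected UMIs of their other genes the name activated applied to a fraction of the members. Ccr7 was detected in 169 members, while Cd69 was detected in 129, Cd44, a surface marker of experienced T cells, in 83 and S100a4 in 73. A cell without a UMI of a gene may still express it. Cytokine genes of helper cells were scarce. Ifng had UMIs in 6 members, Il4 in 4, Il13 in 1 and Il17a in 1, whose 16 UMIs came from a cell of WT 1. Il21 was in none of the 50 to 77 members of a library, which allows shares of up to 3.90% to 6.0% of cells with a UMI (3 cells of the total). Izumo1r (76 members), Cd40lg (60) and Ikzf2 (53) were more common than Zbtb16 (13), the regulator of innate-like T cells, and Tcrg-C1 (12), a gamma chain constant region. Of the 12 members with Tcrg-C1, 10 also had Trac and 1 had Cd4. Genes of group 2 innate lymphoid cells other than those of the gate summed to 125, 23.8, 64.2 and 49.97 CPM, with 4 of the 12 at 0. Klrg1 was at 0 in every library, and Arg1 had UMIs in 3 members.

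The members differed among themselves along the number of activation genes detected. The comparisons in this and the next paragraph leave out the myeloid-rich cells and carry no test, since the gate used genes of the same cells. In members with 3 or more of the 6 genes, S100a4, a calcium-binding protein gene of memory and effector T cells, stood at 889 in WT 1, 701 in WT 2, 1656 in KO 1 and 1128 in KO 2. In members with exactly 2 it stood at 50.1, 275, 25.2 and 213, lower in each library. Levels averaged over the 4 libraries (± SD) also differed for Ikzf2, the gene of the transcription factor Helios, at 223 ± 79.7 against 40.5 ± 23.8. Ccr2, a receptor of inflammatory chemokines, stood at 186 ± 86.4 against 22.98 ± 13.7. The type 17 associated gene Tmem176a stood at 173 ± 197 against 4.48 ± 3.27, with most of the former from KO 1 (456). The reverse held for Igfbp4, a naive T cell gene, at 90.97 ± 63.5 against 437 ± 127, and for Lef1 at 276 ± 105 against 676 ± 81.4. The 14 naive T cell genes summed to 5046 to 7061 CPM in the former and 8316 to 9006 in the latter, without overlap between libraries. The 17 tissue residency genes outside the gate summed to 4522 to 7508 and 2411 to 3399.5. Of 1386 genes at 100 CPM or more in either group, 299 were higher with 3 or more and 100 lower in all 4 libraries. Of these, 51 were at least 2-fold higher (3.68% of the 1386) and 14 at least 2-fold lower (1.01%) by the mean of the 4 libraries. Members with more of the genes were also deeper in 4 of 4 libraries (median 6418 against 5389.5 UMIs in WT 1, 6067 against 5085 in WT 2, 4844 against 4312.5 in KO 1, and 5367 against 5168 in KO 2). The part of depth in these differences was not tested. By Cd4, the gamma-delta genes other than Trdc summed to 129 to 345 in members without a Cd4 UMI and to 0 to 58.9 in those with one. With myeloid-rich cells kept, the same sum was 135 to 141 in B cells and 429 to 481 in T cells with a Trdc UMI. The members without Cd4 therefore reached down to the level of B cells.

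Cells just outside the gate, with 1 of the 6 genes, numbered 156, 113, 142 and 153 in WT 1, WT 2, KO 1 and KO 2 without myeloid-rich cells. In KO 1 they still held transcripts of other cells. Its myeloid genes summed to 2997 CPM and its lung epithelium genes to 13485, against 286 and 76.9 in its members. Their S100a4 level was 17.1 ± 14.8 CPM (SD, 4 libraries) against 141 ± 122 just inside, with exactly 2. Gata3 stood at 60.7 ± 16.6 outside and 84.5 ± 26.6 inside, and Lef1 at 764 ± 32.8 and 676 ± 81.4. Resting CD4 T cells, 550 cells with Cd4 and none of the 6 genes after the same exclusion, carried S100a4 at 5.02 ± 2.10, and the 237 members at 497 ± 152, a log2 ratio of 6.63. Among 1246 genes at 100 CPM or more in either population, the log2 ratio of members to resting CD4 T cells had a median of 0.18. By the mean of the 4 libraries 28 genes outside the gate (2.25%) were at least 2-fold higher while higher in each library. In the other direction 0 (0.00%) met both conditions. The highest included S100a6 (6.11 on the log2 scale), Ikzf2 (5.11), the scaffold gene Ahnak (4.23), the chemokine Ccl5 (3.80), the integrin Itgb1 (3.74), Cd44 (3.12) and the galectin Lgals1 (2.72). Lower in the members in all 4 libraries were Igfbp4 (-0.95), Dapl1 (-0.74), Lef1 (-0.62) and Bach2 (-0.52), all of them genes of naive T cells. Against the 88 Foxp3+ T cells left without myeloid-rich ones, of which WT 2 gave 7, the median over 1470 genes was -0.17. By the mean, with the same direction in all 4 libraries, the members were at least 2-fold higher for 25 genes (1.70%) and 2-fold lower for 68 (4.63%). Higher in the members were Igfbp4 (4.68), Dapl1 (4.14), Lmo4 (3.14), the T cell developmental regulator Themis (2.57), Tcf7 (1.62) and the interleukin 7 receptor gene Il7r (1.25). Lower were genes of regulatory T cells, among them Lrrc32 (-5.25), the interleukin 2 receptor chain Il2ra (-3.92), Ikzf2 (-3.29) and Capg (-2.07). Il2ra stood at 8.57, 7.67, 18.3 and 21.03 in the members and at 238, 241, 182 and 182 in the Foxp3+ cells, without overlap.

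**Figure D2:**
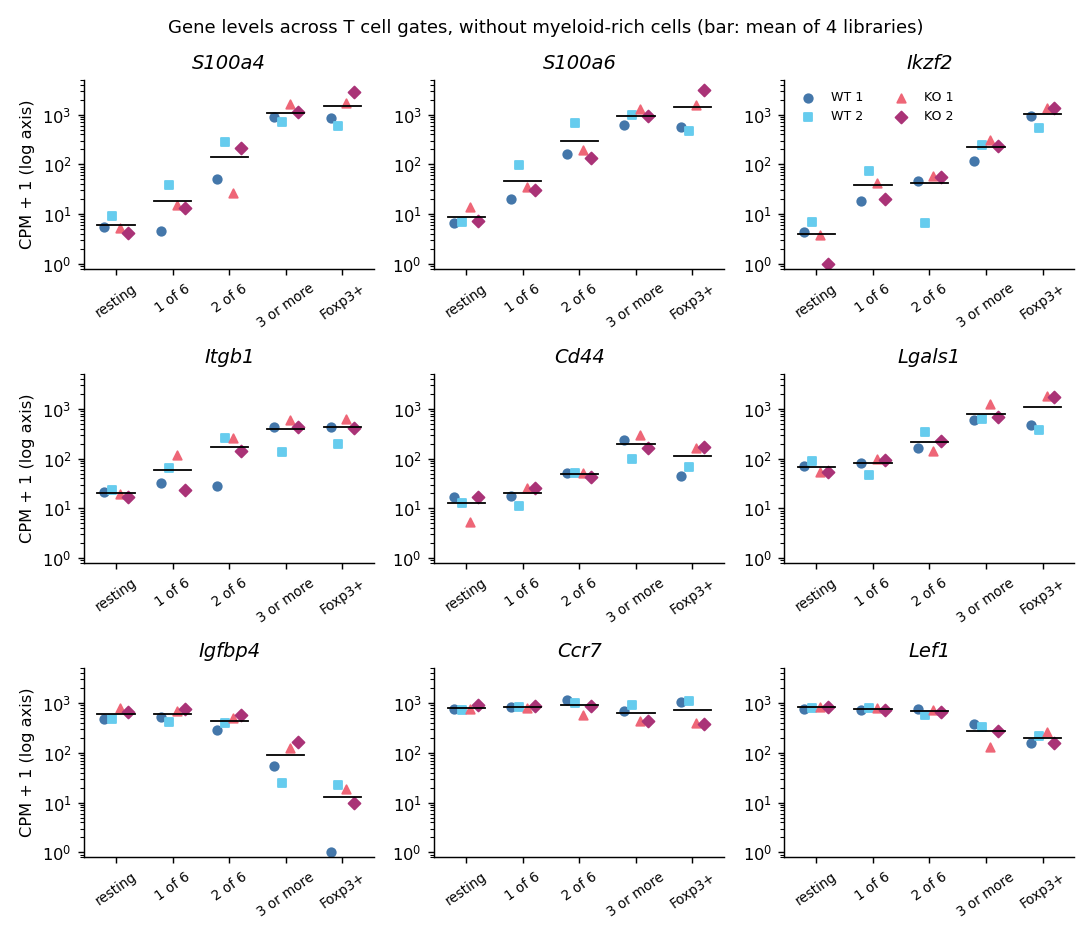
Levels of 9 genes in CPM plus 1 (log axis) in resting CD4 T cells, cells with 1 of the 6 gate genes, gated cells with 2, gated cells with 3 or more, and Foxp3+ T cells, all without myeloid-rich cells; each symbol is a library and the bar is the mean of 4. The S100a4 mean goes from 5.02 in resting cells to 1093 in gated cells with 3 or more genes, while the Igfbp4 mean goes from 605 to 90.97.

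The first question the design puts to these cells is whether loss of lamin A in leukocytes changed how many of them were recovered from the lung. Members were 1.62% of kept cells in WT 1 (95% Clopper-Pearson interval 1.25% to 2.07%, which covers counting error only), 1.29% in WT 2 (0.958% to 1.70%), 1.80% in KO 1 (1.40% to 2.28%) and 2.14% in KO 2 (1.70% to 2.67%). Both knockout libraries lay above both WT libraries, with a mean of 1.97% ± 0.240 (SD, n = 2) against 1.46% ± 0.237. In edgeR's quasi-likelihood test over 8 cell gates that share the libraries' cells, the log2 difference was 0.44 ± 0.30 (SE) with an adjusted p of 0.619, so the difference did not pass the test. Thinned to 1500 UMIs per cell, the shares were 0.726% and 0.669% in WT 1 and WT 2 and 1.10% and 0.946% in KO 1 and KO 2 (log2 difference 0.55 ± 0.33, adjusted p = 0.303). Without WT 2, the library with many precursor cells in the denominator, the difference was 0.28 ± 0.25 (adjusted p = 0.750). Measured against Cd3+ cells with the 8 excluded genes at 0, which leaves those precursors out, members were 11.9% and 12.2% in WT 1 and WT 2 and 12.6% and 14.6% in KO 1 and KO 2 (0.18 ± 0.22, adjusted p = 0.749). In sorted cells a share can change because these cells or others changed in number, and these cannot be told apart here.

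**Figure D3:**
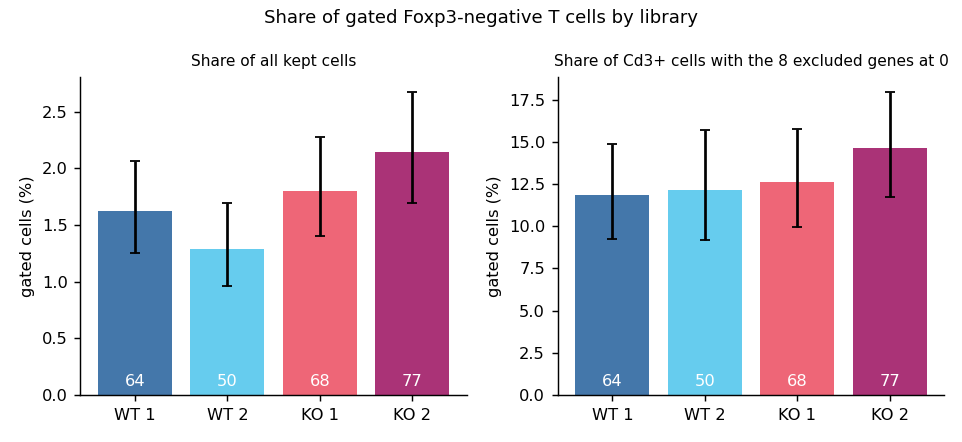
Share of gated cells (y axis, percent) of all kept cells (left) and of Cd3+ cells with the 8 excluded genes at 0 (right) in the 4 libraries; error bars are 95% Clopper-Pearson intervals and white numbers are cells. The knockout bars are higher in both panels, and the intervals of KO 1 overlap those of both WT libraries. The interval of KO 2 overlaps that of WT 1 in the left panel and those of both WT libraries in the right panel.

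Lmna, the targeted gene (chr3:88480147-88509956, minus strand, mm10), gave 44 and 25 UMIs in the members of WT 1 and WT 2 and 9 and 9 in those of KO 1 and KO 2. Its level was 104 in WT 1, 66.02 in WT 2, 24.1 in KO 1 and 21.4 in KO 2 (CPM), without overlap, and it fell in the knockout (log2 fold change -1.89, SE 0.39, adjusted p = 0.0358, edgeR). The call was lost without WT 1 (adjusted p = 0.137), KO 1 (0.0804) or KO 2 (0.208) and in DESeq2 (0.527). The myeloid-rich cells held 35 of the 44, 16 of the 25, 4 of the 9 and 2 of the 9 UMIs. In the other 237 members 9, 9, 5 and 7 UMIs were left, or 25.7, 34.5, 18.3 and 18.4 CPM, too few to pass the filter on low counts, so that a loss of Lmna was not testable in them at this depth. Lmna was higher in WT than in knockout libraries in the Foxp3+ T cells too (61.7, 43.9, 18.2 and 8.88, from 20, 7, 27 and 34 cells), and it was low in resting CD4 T cells of both genotypes (3.39, 2.01, 1.43 and 4.80). The Foxp3+ values rest on few UMIs in each library. Counting from 3-prime ends cannot tell transcripts of a recombined allele that keep the last exon from intact ones. Of the other lamina genes, Lmnb1, which encodes lamin B1, stood at 31.4, 26.9, 58.6 and 52.6 without myeloid-rich cells (log2 fold change 0.83, SE 0.41, adjusted p = 0.739) and Lbr, the lamin B receptor, at 163, 146, 80.6 and 134 (log2 fold change -0.56, SE 0.27, adjusted p = 0.732). Neither passed. Among the 18 nuclear envelope genes, 14 were tested in all members, of which Lmna alone passed, with a median log2 fold change of -0.14 against 0.01 over all genes. Without myeloid-rich cells 13 were tested, 0 passed and the smallest adjusted p was 0.489.

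Across all members 41 of 5258 genes tested differed between genotypes at an adjusted p under 0.05 (0.780%), 2 higher and 39 lower in the knockout, and 381 had an unadjusted p under 0.05. Without WT 1, WT 2, KO 1 or KO 2 the counts were 19, 30, 9 and 32 higher and 116, 78, 65 and 35 lower. Both knockout libraries lay above both WT libraries for 18.0% of the genes and below them for 17.9%. Of the 39, 4 were genes of ribosomal proteins and 35 were not. Many of the 35 are known as genes of macrophages. Ccl6, a macrophage chemokine, gave 372, 285, 38 and 54 UMIs in WT 1, WT 2, KO 1 and KO 2 (log2 fold change -2.81, SE 0.24, adjusted p = 2.83e-05). Car4, a carbonic anhydrase gene, gave 51, 60, 1 and 0, and the lipase gene Lpl 109, 63, 10 and 15. Atp6v0d2, a proton pump subunit of macrophages, had 70 UMIs in WT and 0 in the knockout, at least 23.1-fold lower with 3 UMIs per group as the floor, and the efferocytosis receptor Mertk had 32 and 0, at least 10.5-fold lower. Clec4n, Axl, Il18, Cd68, Mpeg1 and Sirpa fell as well. Of the 2 genes that rose, S100a9, a gene of neutrophils, gave 14, 8, 123 and 281 UMIs (log2 fold change 4.18, SE 0.42, adjusted p = 0.00369). Single cells gave much of these counts. The cell with the most Ccl6 UMIs of each library held 218, 151, 18 and 44 of them. The cell with the most S100a9 UMIs held 112 in KO 1 and 189 in KO 2. For Car4, 1 cell held all 60 UMIs of WT 2. The myeloid-rich cells held 340 of 372, 284 of 285, 38 of 38 and 53 of 54 Ccl6 UMIs, and 113 of 123 and 261 of 281 S100a9 UMIs in KO 1 and KO 2. Without them S100a9 stood at 37.1, 23.02, 36.6 and 52.6 CPM (log2 fold change 0.49, SE 0.43, adjusted p = 0.887), and none of the 35 passed in either direction: 31 were no longer abundant enough to be tested. S100a9 is among the 13 genes that chose the myeloid-rich cells. Its share in those cells and its change on their removal therefore followed in part from that choice. In the remaining 237 members 16 of 4238 genes differed (0.378%), 1 higher and 15 lower, and 289 had an unadjusted p under 0.05. Of these 16 genes 5 had also passed in all members. With the same libraries left out in turn, 11, 16, 7 and 8 genes were higher and 44, 38, 16 and 31 lower. Both knockout libraries lay above both WT libraries for 17.8% of genes and below them for 18.2%.

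Nrp1 (chr8:128358604-128503363, plus strand, mm10) was the gene that rose both with and without the myeloid-rich cells. It encodes neuropilin 1, a co-receptor found on many regulatory T cells and on some activated T cells. It gave 7, 2, 19 and 34 UMIs without the myeloid-rich cells, from 5, 2, 12 and 12 cells, and stood at 19.99 in WT 1, 7.67 in WT 2, 69.6 in KO 1 and 89.4 in KO 2 (CPM, log2 fold change 2.36, SE 0.47, adjusted p = 0.0223, edgeR). Both knockout libraries lay above both WT libraries. In all members the UMIs were 8, 8, 25 and 37 (log2 fold change 1.95, SE 0.39, adjusted p = 0.0332). Without KO 2 the difference was 2.12 with an adjusted p of 0.263, against 0.000764 to 0.0395 without any other library, and DESeq2 on the same cells called 0 genes higher, with 62 of 4238 genes at an unadjusted p under 0.05. In all members the call was lost without KO 2 (adjusted p = 0.156), with a block for library number (0.135), in DESeq2 (0.534), in members with 3 or more of the 6 genes (0.147) and in those with a Cd4 UMI (0.234), against 0.000508 to 0.0457 under the other alternatives. In members with 3 or more of the 6 genes Nrp1 stood at 15.3, 12.1, 149 and 196, against 22.8, 5.62, 12.6 and 38.8 in those with exactly 2. Resting CD4 T cells held nearly none (0, 0, 0 and 1.60), and Foxp3+ T cells held it in both genotypes (149.7, 109.7, 169 and 186). Whether cells of the regulatory lineage with an undetected Foxp3 transcript took part was not tested. Of their genes, Ikzf2 stood at 71.4, 80.6, 161 and 110.4 (log2 fold change 0.75, SE 0.29, adjusted p = 0.595), Capg at 59.97, 92.1, 179 and 110.4 and Il2ra at 8.57, 7.67, 18.3 and 21.03, and in the list of 11 regulatory T cell genes that the gate did not use Nrp1 was the only one of 5 tested that passed. Without the myeloid-rich cells 4 of the 5 were above 0, with a median log2 fold change of 0.75.

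The 15 genes that fell without the myeloid-rich cells included Rps28, Rps29, Rpl38, Rpl35, Rps27, Rps21, Rpl41, Rpl37, Rpl37a, Rpl36 and Rpl39 of ribosomal proteins, the predicted gene Gm10076 and the mitochondrial genes mt-Nd3 and mt-Nd4l. Rps28 stood at 5129, 4055, 1718 and 2227 CPM (log2 fold change -1.29, SE 0.17, adjusted p = 0.000305). Rps29 stood at 10175, 8294, 3366 and 4764 (log2 fold change -1.25, SE 0.18, adjusted p = 0.000548). For both, the WT and knockout libraries did not overlap. These falls were a small part of the ribosomal proteins: of 85 Rps and Rpl genes tested 11 passed, and the median log2 fold change of the 85 was -0.03. The falls were not particular to these cells. All 15 genes were also lower in the knockout in resting CD4 T cells, where 14 passed, and in B cells, where 11 passed. Rps28 changed by -1.29 ± 0.17 in the members, -1.41 ± 0.14 in resting CD4 T cells and -1.30 ± 0.17 in B cells. Rps29 changed by -1.25 ± 0.18 in the members, -1.33 ± 0.14 in resting CD4 T cells and -1.24 ± 0.20 in B cells. The genotype effect in members minus that in resting CD4 T cells lay between -0.10 and 0.39 for the 15 genes, with adjusted p of 0.984 or more. The knockout libraries were also the shallower ones (21780914 and 21849805 UMIs against 26433722 and 27045250), and the part of depth in these falls was not tested. Reads of a ribosomal protein gene and of its processed copies, such as Gm10076, may be split in counting, so the value of each is uncertain.

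**Figure D4:**
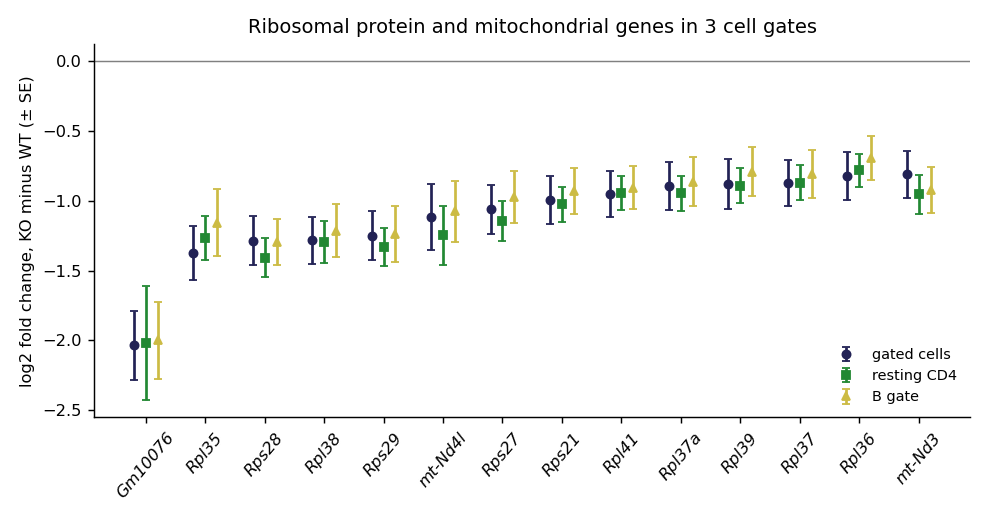
Log2 fold change, knockout minus WT (y axis, error bars SE of the edgeR fit), of ribosomal protein and mitochondrial genes that fell in the gated cells without myeloid-rich cells, with their values in resting CD4 T cells and B cells. All values are below 0 in the 3 gates, from -0.81 to -2.04 in the gated cells.

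**Figure D5:**
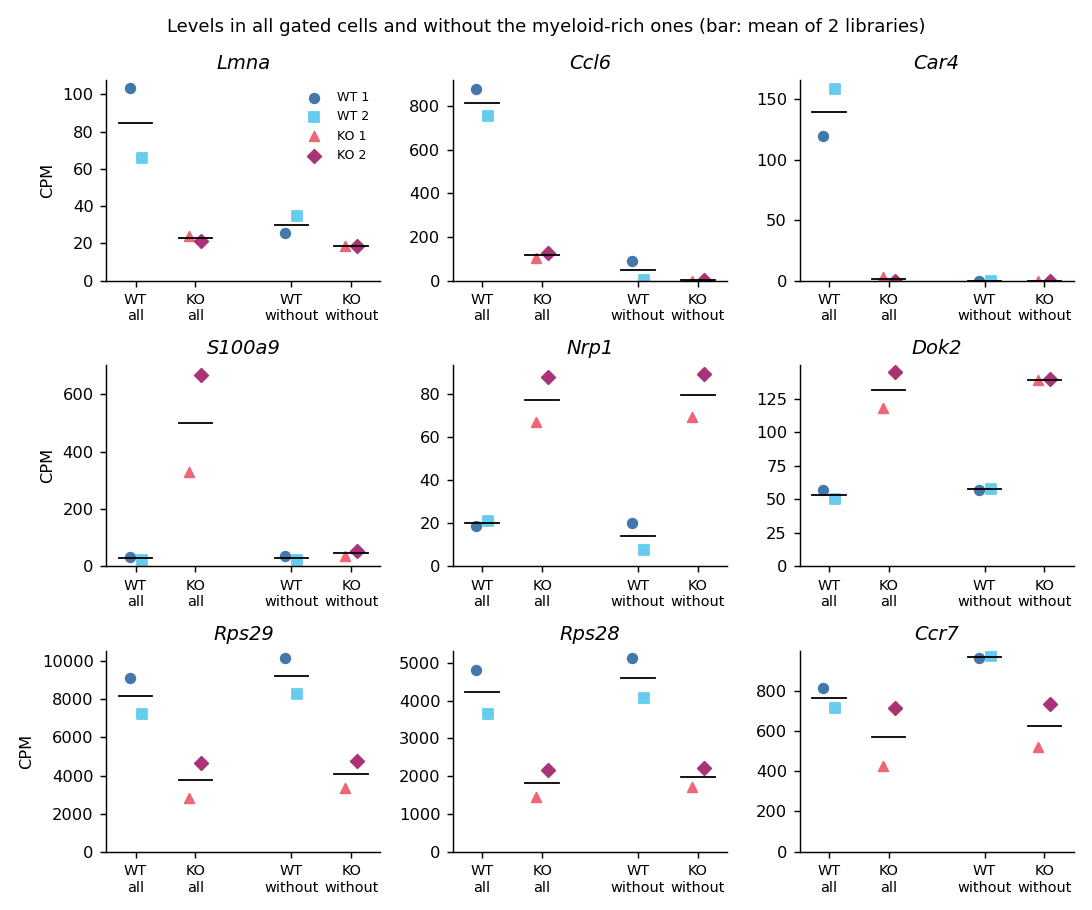
Level of 9 genes in CPM (UMIs scaled by the total, y axis) in WT and knockout libraries, for all gated cells (left pair in each panel) and without the 22 myeloid-rich cells (right pair); each symbol is a library and the bar is the mean of 2. Car4 goes to 0 in the right pair in all 4 libraries, while Nrp1, Rps29 and Rps28 keep their separation. S100a9, among the genes that chose the removed cells, no longer separates.

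The next genes by p did not pass, and their values are given without the myeloid-rich cells. Dok2, an adaptor that dampens T cell receptor signalling, stood at 57.1, 57.5, 139 and 139 (log2 fold change 1.21, SE 0.29, adjusted p = 0.111). H2-Q7, a non-classical MHC class I gene, stood at 443, 391, 678 and 757 (log2 fold change 0.71, SE 0.18, adjusted p = 0.122). Cblb, the ubiquitin ligase that raises the threshold of T cell activation, stood at 337, 284, 183 and 179 (log2 fold change -0.86, SE 0.20, adjusted p = 0.0989). The knockout and WT libraries did not overlap for any of these 3 genes, as was so for 17.8% and 18.2% of all genes in the 2 directions.

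Of 16 lists of T cell and stress genes with 227 genes that the gate did not use, 131 genes were tested without the myeloid-rich cells. Nrp1 passed and the other genes did not, and the median log2 fold change of the 131 was 0.01 against 0.00 over all 4238 genes. In all members 146 were tested, and 1 rose (Nrp1) and 2 fell (Lmna and the immediate early gene Zfp36, which stood at 311, 290.5, 91.00 and 128 with, and at 117, 72.9, 69.6 and 81.5 without, the myeloid-rich cells). The naive T cell list had 4 of 14 tested genes above 0 and a median of -0.29. Its member with the smallest p was Ccr7, which guides T cells to lymph nodes, at 962, 971, 520.1 and 734 (log2 fold change -0.68, SE 0.19, adjusted p = 0.201). Igfbp4, next by p in that list, went the other way (log2 fold change 0.69, SE 0.22, adjusted p = 0.378, edgeR). The type 17 list had 4 of 5 tested genes above 0 and a median of 1.11, led by Tmem176a at 17.1, 15.3, 190.5 and 57.8 (log2 fold change 2.75, SE 0.61, adjusted p = 0.122) and the interleukin 18 receptor gene Il18r1 at 57.1, 53.7, 190.5 and 94.7 (log2 fold change 1.23, SE 0.34, adjusted p = 0.215). KO 1 was the highest library for both. The type 2 list had 2 of 5 tested genes above 0 and a median of -0.01, with Gata3 at 131, 142, 158 and 142 (log2 fold change 0.06, SE 0.24, adjusted p = 0.988), and the type 1 list 5 of 6 tested genes above 0 and a median of 0.45. Tissue residency genes had 7 of 11 tested genes above 0 and a median of 0.18, with Cd69 at 323, 249, 150.2 and 213 (log2 fold change -0.71, SE 0.22, adjusted p = 0.363). S100a4, next by p in that list, went the other way (log2 fold change 0.57, SE 0.19, adjusted p = 0.422, edgeR). Among costimulatory and checkpoint receptors 3 of 5 tested genes were above 0, with a median of 0.28. Tnfsf8 had the smallest p of them and was above 0 (log2 fold change 0.92, SE 0.30, adjusted p = 0.403, edgeR). Cd40lg, the helper ligand, stood at 88.5, 92.1, 25.6 and 55.2 (log2 fold change -1.15, SE 0.38, adjusted p = 0.416). The lists of T cell receptor signalling (3 of 12 tested genes above 0 and a median of -0.12), follicular helper (1 of 5 tested genes above 0 and a median of -0.30), chemokine receptor (4 of 8 tested genes above 0 and a median of 0.14), immediate early (7 of 13 tested genes above 0 and a median of 0.01), NF-kB (9 of 11 tested genes above 0 and a median of 0.10), p53 target (4 of 8 tested genes above 0 and a median of 0.05), interferon-stimulated (5 of 11 tested genes above 0 and a median of -0.00) and cell cycle genes (5 of 6 tested genes above 0 and a median of 0.28) held no gene that passed. A p that misses the threshold does not show that a gene was alike in both genotypes. Tested on simulated counts with the 5260 genes of all members, the fit recovered 47 of 50 genes raised 4-fold and 23 of 50 lowered 4-fold, but 6 of 50 raised 2-fold and 5 of 50 lowered 2-fold. The simulation had the depth of all members, gave every gene the same spread and changed only genes above a minimum count. It does not give the recovery in the smaller fit without myeloid-rich cells, or for genes that vary more between libraries.

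Whether the genotype effect in the members differed from that in resting CD4 T cells of the same mice was tested with the library as a block. Over all cells 10 of 6365 genes passed (0.157%), among them Ccl6, Ctsd and S100a8 of myeloid cells. Without myeloid-rich cells in either population 2 of 5806 passed (0.0344%), Ccr7 and Cited2, and 290 had an unadjusted p under 0.05. Ccr7 stood at 962, 971, 520.1 and 734 in the members and at 773, 713, 761 and 890.5 in resting cells, where its genotype effect was 0.05 ± 0.13. The effects differed by -0.74 ± 0.16 (adjusted p = 0.0269, edgeR), with KO 1 the lowest member library. In the members with 3 or more of the 6 genes Ccr7 stood at 682, 931, 438 and 441, and in the Foxp3+ T cells at 1057, 1097, 387 and 373, where the genotype effect of -1.60 ± 0.25 passed as well (adjusted p = 0.00113, from 20, 7, 27 and 34 cells). Cited2, a transcriptional co-regulator gene, stood at 168, 234, 106 and 137 in the members and at 54.3, 76.5, 89.9 and 117 in resting cells, a difference of effects of -1.35 ± 0.30 (adjusted p = 0.0324). Neither call was kept when any of the 4 libraries was left out: the adjusted p was 0.0548 to 0.999 for Ccr7 and 0.195 to 0.999 for Cited2, with the direction unchanged. Against Foxp3+ T cells 5 of 5534 genes passed over all cells (0.0904%) and 2 of 4506 without myeloid-rich cells (0.0444%), where WT 2 gave 7 Foxp3+ cells. Of the latter, Fgl2, a gene of a secreted immune regulator, was at 37.1, 0, 3.66 and 5.26 in the members and at 0, 0, 54.5 and 209 in the Foxp3+ cells, and its fitted difference rests on values of 0. Lgals1 stood at 317, 429.6, 608 and 368 in the members and at 467, 373, 1779 and 1744 in the Foxp3+ cells, a difference of effects of -1.65 ± 0.33 (adjusted p = 0.032), with the knockout libraries far above WT in the Foxp3+ cells.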

How the data were processed

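Single-cell RNA was measured by 3-prime 10x libraries of sorted lung leukocytes, 1 library from each of 4 mice. Per the submitters' processing notes the authors used Cell Ranger 3.0.2 and Seurat 3.0.0 with the mm10 build. The deposited values are raw UMI counts of 31053 genes per cell barcode. No cell annotation was used, so the cells were gated from the counts, and the members and the gene lists were chosen with earlier results of these data known. The filter on cells asked for 200 or more detected genes and a mitochondrial share of UMIs up to 10%. Doublets were scored on simulated cell pairs at an assumed 0.8% per 1000 cells, and were left out as an alternative only.

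Counts were summed over the cells of a gate in each library. Genotypes were compared with edgeR 4.0.16 (filterByExpr, TMM scaling, robust quasi-likelihood test, Benjamini-Hochberg adjustment over all genes tested, threshold 0.05) in R 4.3.3, and DESeq2 1.42.0 was an alternative. The difference between populations was an interaction term with the library as a block. Levels are CPM computed from the deposited counts over all UMIs of the summed cells. Leaving out the 22 myeloid-rich cells was chosen after seeing the data, and so was the crossed pairing of libraries.

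Named genes were lamina genes, genes of the gate, the 12 highest and 12 lowest calls per direction with 20 or more CPM and non-overlapping libraries (with fewer calls, the genes of smallest p up to 8), up to 4 genes per list by p, and the 15 highest and 12 lowest ratios against resting CD4 and Foxp3+ T cells at 100 or more CPM. Of these a selection is printed. The ribosomal, mitochondrial and interaction genes, the genes that differ with the number of detected gate genes, and the comparison cells' levels were named after their values were seen. With 2 mice a group, p-values measure the spread between these mice. An exact permutation of single values cannot go below 0.333 and was not used. Simulated counts were used to test the fit. Alternatives were each library left out, the replicate number as a block, DESeq2, other scaling and filters, stricter gates and thinned cells. Some genes are not reported here.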

Additional observations from a re-analysis of the deposited data

Results flagged for a closer look

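A difference between the genotype effect in these cells and that in another T cell population of the same mice brought the genes below to attention. Values are the knockout-minus-WT log2 effect in the members minus that in the other population, from edgeR's interaction test. Against resting CD4 T cells and with all cells, 3 genes were above 0, namely Retnlg at 6.96, Retnla at 10.7 and S100a8 at 4.65. The other 7 were below 0, with Irf8 at -3.51, Grn at -3.02, AI504432 at -2.71, Ccl6 at -2.18, Ctsd at -1.83, Zfp36 at -1.59 and Vim at -1.03. Without the myeloid-rich cells none of these 10 passed, and Ccr7 at -0.74 and Cited2 at -1.35 did.

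Against Foxp3+ T cells and with all cells, Thbs1 (7.98) and F13a1 (7.87) were above 0, and Gsn (-3.54), Fos (-3.11) and Zfp36 (-2.68) were below 0. Without the myeloid-rich cells Fgl2 (-10.3) and Lgals1 (-1.65) passed instead. WT 2 gave 9 Foxp3+ cells with, and 7 without, myeloid-rich ones. Fitted values of genes with libraries at 0, such as Retnla and Fgl2, depend on the prior count and are no bound.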

How the results depend on the processing

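The share of members kept its direction and stayed short of the threshold under all 13 alternatives (log2 difference 0.18 to 0.63), also with the replicate block (0.44, adjusted p = 0.651). Counts of genes moved with the settings. In all members 2 genes were higher and 39 lower in the knockout. Leaving out 1 library gave 9 to 32 higher (most without KO 2) and 35 to 116 lower (most without WT 1), where the lone library of a genotype is assumed to vary like the others. The replicate block gave 5 and 16, no filter on low counts 37 and 139, cells without high doublet scores 1 and 24, and cells thinned to 1500 UMIs 4 and 17. Members with at least 3 of 6 genes gave 0 and 0 in edgeR, with 151 of 2136 genes at an unadjusted p under 0.05. DESeq2 gave 21 lower. Without the myeloid-rich cells the counts were 1 and 15, and without myeloid-rich or B-rich cells 1 and 15. Within the fit without myeloid-rich cells, leaving out 1 library gave 7 to 16 higher and 16 to 44 lower, the replicate block gave 10 and 30, and DESeq2 gave 0 higher.

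Same-numbered libraries correlated at -0.18 in their deviations from the group mean. With 2 libraries a group the crossed value is the same with the opposite sign (0.18). The correlation therefore cannot show whether the numbers mark a pairing. Crossed pairing gave 16 higher and 87 lower. For the difference from resting CD4 T cells, 10 genes passed with all cells, 15, 25, 63 and 42 without WT 1, WT 2, KO 1 and KO 2, 3 with at least 10 UMIs in each sum and 2 without myeloid-rich cells (2, 3, 0 and 0 without those libraries). For the difference from Foxp3+ T cells 5 passed, 5, 24, 66 and 13 without those libraries, and 2 without myeloid-rich cells (1, 1, 4 and 5). Of 321 settings of single genes 235 left the gene's status unchanged, 49 lost a call, 33 gained one and 4 reversed. Unchanged status includes genes that had not passed and still did not, such as Cblb, Ccr7 and Dok2 in the members. The 235 is therefore not a count of calls that were kept. The reversals were Ccl6 (0.99) and Cd9 (0.47) with at least 3 of 6 genes, and Ctsd without myeloid-rich cells and without WT 1 (0.22) or without KO 2 (0.069). The cause of these changes was not tested. Lmna in all members lost its call without WT 1 (adjusted p = 0.137), KO 1 (0.0804) or KO 2 (0.208), with the block (0.129) and in DESeq2 (0.527).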
